A study of Homo sapiens with 9 samples.

Results

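The genes described here encode the subunits, activators and assembly factors of the proteasome. They were chosen by name: every gene whose symbol is PSM, then a letter from A to G, then a number, without PSMB8 and PSMB9. The choice by name used no measured value, but earlier results of these data were known when it was made. Where a gene had several array features, that with the highest mean over all 9 arrays stood for it. The rule found 43 of the 18404 genes tested, of 46 human genes with such symbols in RefSeq. PSMC5, PSMD7 and PSMD13 had no array feature under a single symbol and are not analysed here. By role, 17 members belong to the 20S core (8 of the alpha ring and 9 of the beta ring), 14 to the 19S cap (5 ATPases and 9 other subunits), 5 to the activators with the regulator PSMF1, and 7 to the assembly factors.

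RNA came from MCF10A, an established human mammary epithelial line that does not form tumours, and was measured on whole-transcript Affymetrix arrays. There were 3 arrays of control cells, 3 of cells with a transgene for wild-type HER2 (WT-HER2) and 3 of cells with a transgene for Delta-HER2, a splice variant of HER2, the receptor tyrosine kinase encoded by ERBB2. The label of the control cells calls them parental, while the design text speaks of an empty vector. Per the labels, all 3 groups were grown with 5% horse serum, 20 ng/ml epidermal growth factor, hydrocortisone, cholera toxin and insulin, and then spent 16 hours without these supplements before RNA was taken. The labels used here name neither the promoter of the transgenes nor whether each line was a clone or a pool, so an effect of making a line cannot be told apart from that of its receptor. They also do not say whether replicates were separate cultures, so p-values measure only the spread between these arrays.

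The 26S proteasome is the protease that degrades most ubiquitin-tagged proteins of the cytosol and nucleus. Its barrel, the 20S core, has outer rings of alpha subunits, which gate the entry, and inner rings of beta subunits, of which PSMB6, PSMB7 and PSMB5 carry the caspase-like, trypsin-like and chymotrypsin-like active sites. The 19S cap binds ubiquitin chains, removes them, and unfolds and threads the substrate with a ring of ATPases. In immune cells and after interferon, PSMB9, PSMB10 and PSMB8 replace the standard catalytic subunits. Synthesis of the subunits is coordinated, and the transcription factor NFE2L1 raises their genes when proteasome activity is short.

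Values are log2 expression levels, and a gene is said to rise or fall where limma gave an adjusted p below 0.05 over all 18404 genes. Of the 43 members, 41 lay above 3.18, the 0.95 quantile of 340 olfactory receptor genes that served as a gauge of background. The 2 below it were PSMA8, a testis form of an alpha subunit, and PSMB11, a thymus form of a beta subunit. Among 6 epithelial markers, group means ranged from 7.90 for EPCAM to 11.82 for KRT5 in control. With Delta-HER2 2 of these 6 rose, the keratin gene KRT18 by 0.53 and the laminin gene LAMB3 by 0.45, and 1 fell, the cadherin gene CDH1, by 1.03 (adjusted p = 2.73e-04, 0.00185 and 5.06e-06). With WT-HER2 KRT18 and LAMB3 rose by 0.34 and 0.38, and CDH1 and KRT14 fell by 0.33 and 0.68 (adjusted p = 0.0377, 0.0448, 0.0498 and 0.00234). Of markers of other cell types, 5 of 6 fibroblast, 2 of 5 blood and immune and 1 of 4 endothelial genes had a group mean above that bound. The list medians per array ran, for the fibroblast list, from 3.49 to 3.75 in control, 3.55 to 3.83 in WT-HER2 and 3.51 to 3.53 in Delta-HER2. They ran, for the blood and immune list, from 2.70 to 3.08 in control, 2.88 to 2.89 in WT-HER2 and 2.80 to 2.98 in Delta-HER2. For the endothelial list they ran from 2.91 to 2.99 in control, 2.72 to 2.87 in WT-HER2 and 2.62 to 2.79 in Delta-HER2. Among the markers below the background bound in every group were LUM, PTPRC, CD3E, VWF and CDH5. DCN (7.15, 7.73 and 7.07 in control, WT-HER2 and Delta-HER2) and CD14 (8.04, 8.28 and 7.96) lay well above it. With Delta-HER2 CD68 rose by 0.58 and PECAM1 by 0.90, to 3.90, and COL1A1 fell by 0.44 and KDR by 0.36 (adjusted p = 0.00286, 1.31e-04, 0.0134 and 0.0248). With WT-HER2 2 markers of these 3 lists passed: DCN rose by 0.58 and CD68 by 0.76 (adjusted p = 0.0179 and 0.00874). The part of these markers in the results was not tested. Control replicate 1 and WT-HER2 replicate 3 stood apart from the other arrays of their groups on the axis with 16.6% of the variance, and across genes, which are not independent replicates, their deviations correlated at r = 0.64. WT-HER2 replicate 3 had the lowest WT-HER2 value for 30 of the 43 members, and control replicate 1 the lowest control value for 24. Results are therefore also given without these 2 arrays.

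In Delta-HER2 cells 20 of the 43 proteasome genes rose against control and 2 fell, while 21 did not pass. Over all genes tested 25.4% passed in this comparison (13.6% rose and 11.7% fell), against 46.5% and 4.65% of the members. The increases were moderate, from 1.22-fold for PSMD3 to 1.77-fold for PSME3, and no member reached a doubling. The members' median difference was 0.28 log2, beside −0.011 over all genes, and 35 of the 43 differences were above 0. On 27 members all 3 Delta-HER2 arrays lay above all 3 control arrays (62.8%, against 19.2% of all genes), and on 3 members below them (6.98%, against 17.8%). Without the 2 arrays that stood apart, 17 members rose and 2 fell, with a median of 0.25. In such bulk RNA, more transcript per cell and more cells with a high level cannot be told apart.

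**Figure D1:**
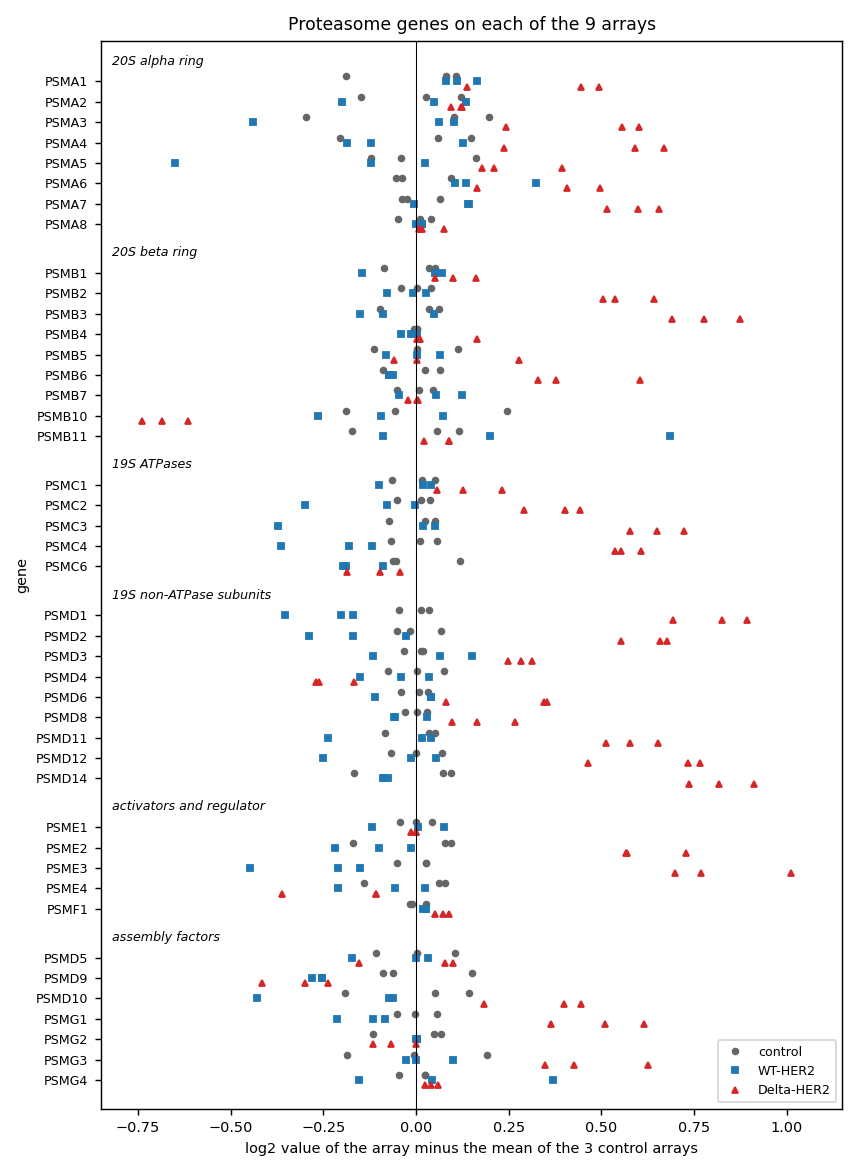
Log2 value of each array minus the mean of the 3 control arrays (x axis) for the 43 proteasome genes (y axis), grouped by role; circles are control, squares WT-HER2 and triangles Delta-HER2 arrays. Triangles lie to the right of all circles for 27 genes and to the left of them for 3, whereas squares mostly overlap the circles.

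The alpha ring held 8 measured genes, of which 4 rose with Delta-HER2 (PSMA1, PSMA4, PSMA6 and PSMA7) and 0 fell, with a median difference of 0.36. PSMA7, a structural alpha subunit, showed the clearest difference. Its values were 7.48, 7.49 and 7.58 on the control arrays, 7.65, 7.66 and 7.51 with WT-HER2 and 8.03, 8.11 and 8.17 with Delta-HER2. All 3 Delta-HER2 values were above the other 6, and the difference from control was 0.59 (SE 0.073, adjusted p = 2.58e-04). PSMA6, another structural alpha subunit, stood at 8.32, 8.34 and 8.47 in control, 8.70, 8.51 and 8.48 in WT-HER2 and 8.78, 8.54 and 8.87 in Delta-HER2 cells. Both HER2 lines lay above control on every array, and the rise with Delta-HER2 was 0.36 (adjusted p = 0.0303). The alpha ring's smallest difference was that of the testis gene PSMA8, with 2.15, 2.12 and 2.07 in control, 2.13, 2.11 and 2.13 in WT-HER2 and 2.19, 2.13 and 2.12 in Delta-HER2 cells, all in the background range.

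Several alpha ring calls were lost when any 1 of several arrays was left out. PSMA4 rose by 0.50 (adjusted p = 0.0266) but lost its call when any one of control replicates 1 and 3 and Delta-HER2 replicates 1 and 3 was dropped (0.0576 ≤ adjusted p ≤ 0.105). For PSMA6 the arrays with this effect were control replicates 1 and 2 and Delta-HER2 replicates 1 and 3 (0.0826 ≤ adjusted p ≤ 0.116). PSMA1, with a difference of 0.36 (adjusted p = 0.0435), passed on leaving out Delta-HER2 replicate 2 and on none of the 8 other omissions (0.0501 ≤ adjusted p ≤ 0.156). The omission of a WT-HER2 array left its difference at 0.36 and moved only its test. Without the 2 arrays that stood apart, PSMA1, PSMA4 and PSMA6 had adjusted p of 0.120, 0.0715 and 0.0700. PSMA3, an alpha subunit with a difference of 0.47 (SE 0.18), did not pass (adjusted p = 0.0937) with all arrays and did without WT-HER2 replicate 3 (0.0392). The differences of PSMA5 (0.26) and PSMA2 (0.11) did not pass either.

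In the beta ring 3 of 9 genes rose with Delta-HER2 (PSMB2, PSMB3 and PSMB6), 1 fell (PSMB10) and 5 did not pass, with a median of 0.073. Of the 3 standard catalytic genes PSMB6 passed, and PSMB7 and PSMB5 did not. PSMB6, the caspase-like subunit, stood at 8.03, 7.87 and 7.99 on control, 7.89, 7.89 and 7.90 on WT-HER2 and 8.57, 8.29 and 8.34 on Delta-HER2 arrays. Its Delta-HER2 values were the 3 highest, a rise of 0.44 (SE 0.085, adjusted p = 0.00395). PSMB7, the trypsin-like subunit, had 9.16, 9.22 and 9.26 in control, 9.26, 9.33 and 9.17 in WT-HER2 and 9.22, 9.21 and 9.19 in Delta-HER2 cells. Its groups overlapped, and the difference with Delta-HER2 was −0.0050, with a 95% interval of −0.16 to 0.15. PSMB5, the chymotrypsin-like subunit and the main target of bortezomib, had 7.93, 7.70 and 7.82, then 7.82, 7.88 and 7.73 and 7.75, 8.09 and 7.82 in the same order of groups. These groups overlapped too, with a difference of 0.073 and an interval of −0.16 to 0.30. The difference in response between these 3 genes was not tested.

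PSMB10, the immunoproteasome's trypsin-like subunit, was the member with the lowest difference. It stood at 6.45, 6.14 and 6.01 in control, 5.93, 6.27 and 6.10 in WT-HER2 and 5.51, 5.58 and 5.46 in Delta-HER2 cells. The 3 Delta-HER2 values lay below all others, 1.60-fold under control (log2 difference −0.68, SE 0.12, adjusted p = 0.00248). Its usual companions, which the naming rule leaves out, did not pass against control: PSMB9 had a difference of −0.10 and PSMB8 of −0.040 (interval −0.50 to 0.42). The structural gene PSMB3 had the largest rise of the ring, from 8.40, 8.56 and 8.53 in control and 8.41, 8.55 and 8.35 in WT-HER2 to 9.28, 9.37 and 9.19 in Delta-HER2 cells. That is 1.72-fold over control (log2 difference 0.78, SE 0.083, adjusted p = 9.74e-05), with no overlap between the groups. PSMB2, also structural, rose by 0.56 (adjusted p = 2.14e-04). PSMB1 (0.10) and PSMB4 (0.059), further subunits without an active site, did not pass. The thymus gene PSMB11 had 2.52, 2.46 and 2.23 in control, 2.32, 2.61 and 3.09 in WT-HER2 and 2.43, 2.49 and 2.49 in Delta-HER2 cells, all under the background bound; its highest value was that of WT-HER2 replicate 3.

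**Figure D2:**
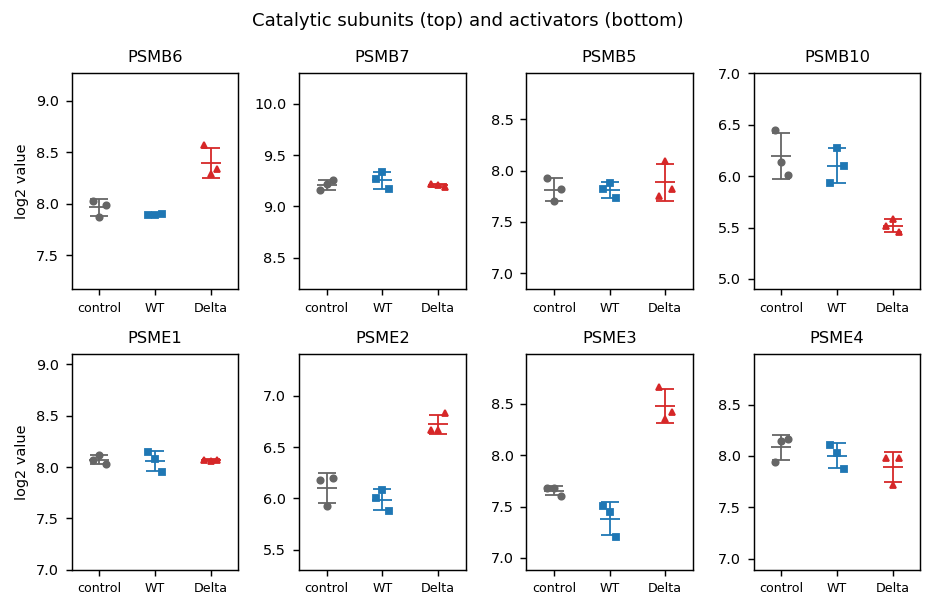
Log2 values (y axis, of the same span in every panel) of 4 catalytic and 4 activator genes in control, WT-HER2 and Delta-HER2 cells (x axis); points are the 3 arrays of a group, and bars the mean with its SD. PSMB6, PSME2 and PSME3 are highest and PSMB10 lowest in the Delta-HER2 cells, with no overlap, while PSMB5, PSMB7 and PSME1 overlap between groups.

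The 19S cap had 14 measured genes, of which 9 rose and 0 fell with Delta-HER2, with a median difference of 0.47. Among the ATPases, which unfold substrates and open the gate of the core, 3 of 5 rose (PSMC2, PSMC3 and PSMC4), with a median of 0.38. PSMC3 stood at 7.21, 7.30 and 7.33 in control, 7.30, 7.33 and 6.91 in WT-HER2 and 7.93, 7.86 and 8.004 in Delta-HER2 cells. Delta-HER2 was above both other groups on every array, and the rise over control was 0.65 (SE 0.11, adjusted p = 0.00193). PSMC4 had 6.92, 6.80 and 6.87 in control, 6.74, 6.68 and 6.50 in WT-HER2 and 7.42, 7.47 and 7.40 in Delta-HER2 cells. Here the 3 groups were apart from each other, with WT-HER2 lowest and Delta-HER2 highest (0.56 over control, SE 0.079, adjusted p = 5.46e-04). PSMC2 rose by 0.38 (adjusted p = 0.0107).

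The other 2 ATPase genes did not pass with Delta-HER2. PSMC6 had 8.14, 8.15 and 8.33 in control, 8.01, 8.12 and 8.02 in WT-HER2 and 8.02, 8.11 and 8.16 in Delta-HER2 cells, a difference of −0.11 with an interval of −0.28 to 0.066. It was the 1 member with more than 1 array feature; its lower feature, which was not used, lies among features of genes from another chromosome than that of PSMC6, so it is uncertain which locus that feature reports. PSMC1 differed by 0.14 (adjusted p = 0.255). The features numbered next to that of PSMC1 all carry genes of chromosome 3 (10 of 10), whereas RefSeq places PSMC1 on chromosome 14. Of 19128 features with a single gene, 98.4% shared the chromosome of most of their neighbours, so it is uncertain which locus the value of PSMC1 reports. The features used for the other 42 members lay among neighbours from their own gene's chromosome.

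The 9 non-ATPase subunits of the cap had the highest median of the 6 roles, 0.58, and 6 of them rose (PSMD1, PSMD2, PSMD3, PSMD11, PSMD12 and PSMD14). PSMD14, the deubiquitinase that cuts ubiquitin chains from substrates, stood at 7.75, 7.99 and 8.02 in control, 7.84, 7.83 and 7.83 in WT-HER2 and 8.74, 8.66 and 8.83 in Delta-HER2 cells. All 3 Delta-HER2 arrays exceeded the other 6, by 1.77-fold over control (log2 difference 0.82, SE 0.086, adjusted p = 8.39e-05). PSMD1, the large scaffold subunit of the base, had 7.92, 7.98 and 8.002 in control, 7.80, 7.77 and 7.61 in WT-HER2 and 8.86, 8.66 and 8.79 in Delta-HER2 cells. The groups were again apart, with WT-HER2 lowest, and the rise over control was 0.80 (SE 0.079, adjusted p = 5.83e-05). PSMD2, the other scaffold of the base, rose by 0.63, and the lid subunits PSMD12 and PSMD11 by 0.65 and 0.58 (adjusted p = 3.61e-04, 0.00145 and 9.88e-04).

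PSMD3, a lid subunit, had the smallest called rise (0.28, adjusted p = 0.0258), which was lost on dropping any control array or either of Delta-HER2 replicates 1 and 3 (0.0624 ≤ adjusted p ≤ 0.0836). The cap subunit with the lowest difference was PSMD4, a ubiquitin receptor. Its values were 7.26, 7.11 and 7.19 in control, 7.03, 7.14 and 7.22 in WT-HER2 and 6.92, 7.02 and 6.91 in Delta-HER2 cells, with Delta-HER2 below the other 2 groups on every array. The difference of −0.23 missed the threshold (adjusted p = 0.0507) and met it on dropping either of WT-HER2 replicates 1 and 3 (0.0366 ≤ adjusted p ≤ 0.0497). The lid subunits PSMD6 (0.26, adjusted p = 0.0626) and PSMD8 (0.18, adjusted p = 0.102) had Delta-HER2 arrays above all control arrays but did not pass; PSMD6 passed without Delta-HER2 replicate 2 (adjusted p = 0.0129).

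Activators open the core without the 19S cap. PSME1 and PSME2 form the mixed ring PA28, which interferon induces, PSME3 forms a nuclear ring, and PSME4 encodes the large activator PA200. With Delta-HER2, 2 of these 4 rose, PSME2 and PSME3. PSME3 stood at 7.68, 7.68 and 7.60 in control, 7.50, 7.44 and 7.20 in WT-HER2 and 8.66, 8.35 and 8.42 in Delta-HER2 cells. It had the largest rise of all 43 members, 1.77-fold (log2 difference 0.83, SE 0.10, adjusted p = 2.85e-04), and its 3 groups did not overlap, WT-HER2 being lowest. PSME2 had 6.18, 5.93 and 6.20 in control, 5.9998, 6.09 and 5.88 in WT-HER2 and 6.67, 6.67 and 6.83 in Delta-HER2 cells, and rose 1.54-fold (0.62, SE 0.10, adjusted p = 9.62e-04). For its ring partner PSME1 the values were 8.07, 8.11 and 8.03, then 8.15, 8.08 and 7.95 and 8.07, 8.06 and 8.07. These overlapped, with a difference of −0.0043 and an interval of −0.16 to 0.15, beside an interval of 0.41 to 0.84 for PSME2; the difference between the partners was not tested.

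PSME4 had 7.94, 8.15 and 8.16 in control, 8.11, 8.03 and 7.87 in WT-HER2 and 7.98, 7.72 and 7.98 in Delta-HER2 cells, overlapping values with a difference of −0.19 (interval −0.42 to 0.039). PSMF1, which encodes PI31, first described as an inhibitor of the core, had 8.16, 8.16 and 8.20 in control, 8.20, 8.20 and 8.19 in WT-HER2 and 8.26, 8.25 and 8.23 in Delta-HER2 cells. Its Delta-HER2 values were the highest on every array, but the difference of 0.071 did not pass (adjusted p = 0.484).

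Of 7 assembly factors 2 rose (PSMG1 and PSMG3), 1 fell (PSMD9) and 4 did not pass, with a median of 0.041. PSMG1 encodes a chaperone that, with PSMG2, guides the alpha ring. It stood at 6.80, 6.70 and 6.75 in control, 6.63, 6.66 and 6.53 in WT-HER2 and 7.26, 7.11 and 7.36 in Delta-HER2 cells, with no overlap between any 2 groups and a rise of 0.50 over control (SE 0.081, adjusted p = 0.00138). PSMG2 did not pass (−0.061, interval −0.22 to 0.10). In the other chaperone pair, PSMG3 rose by 0.47 (adjusted p = 0.0109) and PSMG4 differed by 0.041 (interval −0.22 to 0.30).

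Among the members, PSMD5, PSMD9 and PSMD10 encode chaperones of the 19S ATPase ring. PSMD9 had 6.29, 6.26 and 6.50 in control, 6.10, 6.07 and 6.10 in WT-HER2 and 6.11, 6.05 and 5.93 in Delta-HER2 cells. Both HER2 lines lay below control on every array, and the fall was 0.32 with Delta-HER2 (SE 0.083, adjusted p = 0.0191). The call was lost on dropping replicate 3 of control or of Delta-HER2 (0.0667 ≤ adjusted p ≤ 0.0773), which left PSMB10 as the single member that fell. PSMD10, the oncoprotein gankyrin, differed by 0.34 and did not pass (adjusted p = 0.0887; 0.0391 without WT-HER2 replicate 3), and PSMD5 differed by 0.0078 (interval −0.21 to 0.23).

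**Figure D3:**
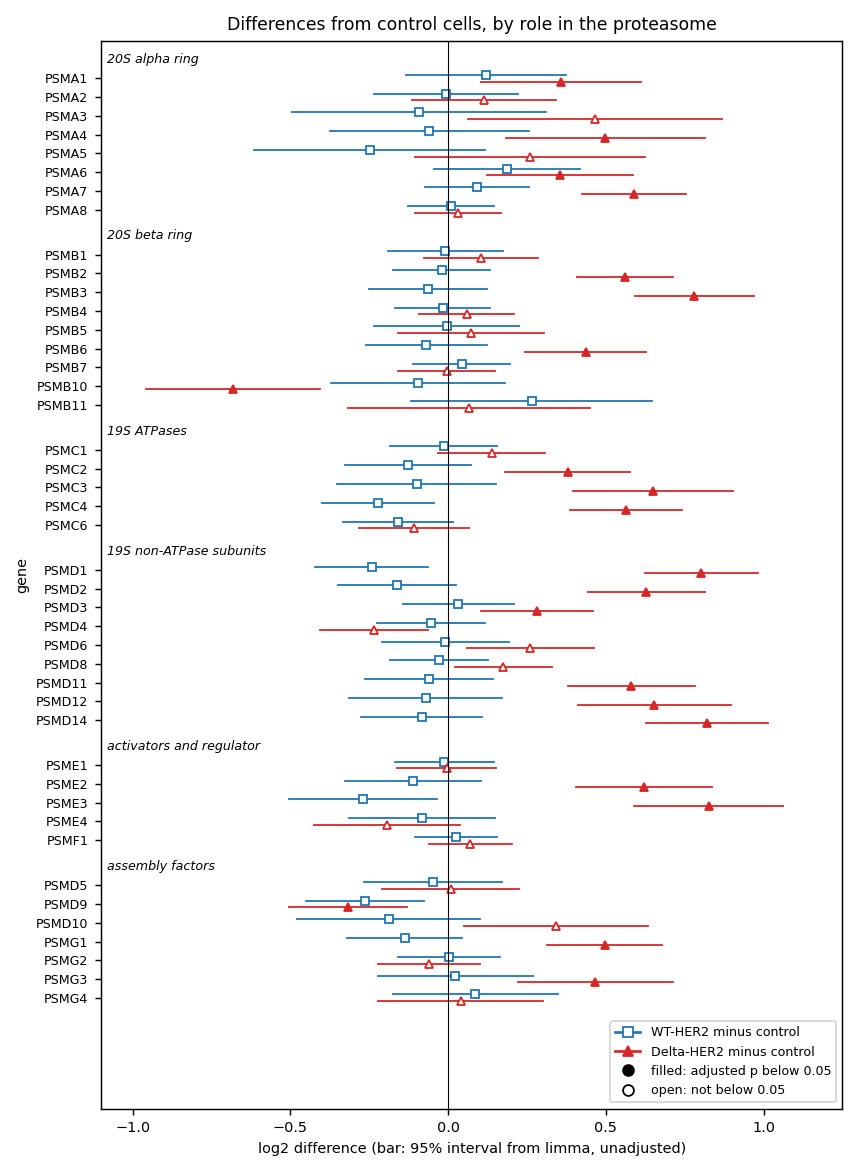
Log2 difference from control (x axis) with its 95% interval for the 43 genes (y axis), with squares for WT-HER2 and triangles for Delta-HER2; filled symbols have an adjusted p below 0.05. Filled triangles lie to the right of 0 for 20 genes and to the left for PSMB10 and PSMD9, and no square is filled.

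With WT-HER2 none of the 43 members passed limma, beside 1.68% of all genes (0.777% higher and 0.902% lower). At an unadjusted p below 0.05 in limma, 4 members were lower (PSMC4, PSMD1, PSME3 and PSMD9) and 0 were higher. Of all 18404 genes, 1161 were lower and 906 higher at that level. No alternative fit called a member. The median difference was −0.053, against 0.0089 over all genes, and the 43 intervals together spanned −0.62 to 0.65, so changes of the size seen for PSME3 with Delta-HER2 lay outside every interval. On 6 members all WT-HER2 arrays were below all control arrays (14.0%, against 7.63% of all genes): PSMC4 (−0.22), PSMC6 (−0.16), PSMD1 (−0.24), PSME3 (−0.27), PSMG1 (−0.14) and PSMD9 (−0.26). The smallest adjusted p was that of PSMD9 (0.230). WT-HER2 replicate 3 held the lowest value for PSMC4, PSMD1, PSME3 and PSMG1. Without it and control replicate 1, these 6 differences were −0.12, −0.17, −0.21, −0.17, −0.072 and −0.30, and the median over all members was −0.020. PSMA6 was the 1 member with every WT-HER2 array above every control array (0.19, adjusted p = 0.560), beside 6.40% of all genes.

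Between the HER2 lines 19 members were higher in Delta-HER2 and 1 was lower, beside 13.4% and 9.35% of all genes (22.8% in either direction). This comparison uses the same Delta-HER2 arrays as that with control. All Delta-HER2 arrays lay above all WT-HER2 arrays on 25 members and below them on 2 (18.3% and 16.3% of all genes). The median was 0.25, against −0.037 over all genes. Differences of at least a doubling were those of PSME3 (1.10 log2, adjusted p = 6.07e-05) and PSMD1 (1.04, 2.06-fold, adjusted p = 1.52e-05). PSMD14 (0.91), PSMB3 (0.84), PSMD2 (0.79) and PSMC4 (0.79) followed, with adjusted p of 5.75e-05, 7.46e-05, 1.06e-04 and 8.40e-05. By role, 9 of 14 cap genes, 5 of 17 core genes, 2 of 5 activator genes and 3 of 7 assembly genes were higher. The core genes include PSMA8 and PSMB11, which lay in the background range. PSMB10 was the member that was lower (−0.58, SE 0.12, adjusted p = 0.00682). PSMD10 was higher by 0.53 (adjusted p = 0.0148), a call lost on dropping either of Delta-HER2 replicates 1 and 3 (0.0572 ≤ adjusted p ≤ 0.0625).

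Further calls between the HER2 lines changed when 1 array was left out. PSMA4 (0.56) lost its call on dropping any one of WT-HER2 replicates 2 and 3 and Delta-HER2 replicates 1 and 3 (0.0528 ≤ adjusted p ≤ 0.0730). PSMG3 (0.44) did so for WT-HER2 replicates 1 and 2 and Delta-HER2 replicate 2 (0.0513 ≤ adjusted p ≤ 0.0588). PSMD3 (0.25, adjusted p = 0.0482) passed on leaving out WT-HER2 replicate 1 and on none of the 8 other omissions (0.0559 ≤ adjusted p ≤ 0.138). PSMA3 (0.56, adjusted p = 0.0513) passed without control replicate 1 or Delta-HER2 replicate 2, PSMA5 (0.51, adjusted p = 0.0512) without WT-HER2 replicate 1, and PSMD6 (0.27) and PSMA1 (0.24) without Delta-HER2 replicate 2. The rise of PSMA1 and PSMA6 over control with Delta-HER2 was not matched by a call here, where they differed by 0.24 and 0.17 (adjusted p = 0.181 and 0.312), and the same held for the fall of PSMD9 (−0.055).

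Genes that act with the proteasome, listed by role, were read in the same fits. Of 12 proteasome-associated genes 6 rose with Delta-HER2 and 0 fell (median 0.25), beside 13.6% and 11.7% of all genes. POMP, the maturation factor of the core, stood at 7.75, 7.90 and 7.90 in control, 7.83, 7.89 and 7.64 in WT-HER2 and 8.29, 8.33 and 8.24 in Delta-HER2 cells, a rise of 0.44 with no overlap (SE 0.084, adjusted p = 0.00334). UBE3C, a ubiquitin ligase that docks on the proteasome, rose by 0.40 (adjusted p = 0.00349). The others that rose, named after their values were seen, were the ubiquitin receptor gene ADRM1 (0.42), the deubiquitinase genes UCHL5 (0.80) and USP14 (0.54), and AKIRIN2 (0.37), whose product aids nuclear import of proteasomes. The calls of these others were not checked in the alternative fits. PAAF1, a factor that binds the 19S ATPases, did not pass (0.13). PSMB9 was lower in Delta-HER2 than in WT-HER2 cells by 0.44 (adjusted p = 0.00654), with 6.77, 6.82 and 6.56 against 6.41, 6.17 and 6.24, and did not pass between WT-HER2 and control (0.34, adjusted p = 0.135).

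Of 5 genes that control proteasome expression, 0 rose and 2 fell with Delta-HER2, beside 13.6% and 11.7% of all genes. NFE2L1 had 10.07, 10.12 and 10.22 in control, 10.13, 10.18 and 10.03 in WT-HER2 and 8.86, 8.85 and 8.74 in Delta-HER2 cells. It fell 2.49-fold with Delta-HER2 (log2 difference −1.32, SE 0.074, adjusted p = 2.02e-06), with every Delta-HER2 array below all others. NFE2L2, the related factor that induces antioxidant genes, had 9.04, 9.14 and 9.15 in control, 9.04, 8.96 and 8.79 in WT-HER2 and 8.64, 8.44 and 8.56 in Delta-HER2 cells, a fall of 0.56 (SE 0.087, adjusted p = 9.88e-04). The other 3 genes of this list, MAFF, MAFG and NGLY1, did not pass with Delta-HER2 (differences 0.070, −0.052 and 0.13). RNA levels do not report the cleavage and transport to the nucleus by which NFE2L1 protein is activated, and its part in the levels of the subunit genes was not tested.

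Of the ubiquitin and activating enzyme genes, 1 of 3 rose with Delta-HER2, beside 13.6% of all genes. It was UBA6, an activating enzyme gene, with a rise of 0.53 (adjusted p = 0.00651). The polyubiquitin gene UBB (0.33, adjusted p = 0.0698) and UBA1, the main activating enzyme gene (0.19, adjusted p = 0.0727), did not pass. Among 10 genes of ubiquitin shuttles and the unfolding ATPase VCP with its partners, 3 rose and 0 fell (median 0.12). Over all genes 13.6% rose and 11.7% fell. VCP rose by 0.30 (adjusted p = 0.0116), and the shuttle genes UBQLN4 and UBQLN1 by 0.43 and 0.32 (adjusted p = 0.00459 and 0.00568), while UBQLN2 differed by −0.20 (adjusted p = 0.0662). The features of UBQLN4 disagreed: the one with the lower level had a difference of −0.33 (adjusted p = 0.0967), so its direction is uncertain. With WT-HER2 no gene of these 4 lists passed, beside 1.68% of all genes.

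**Figure D4:**
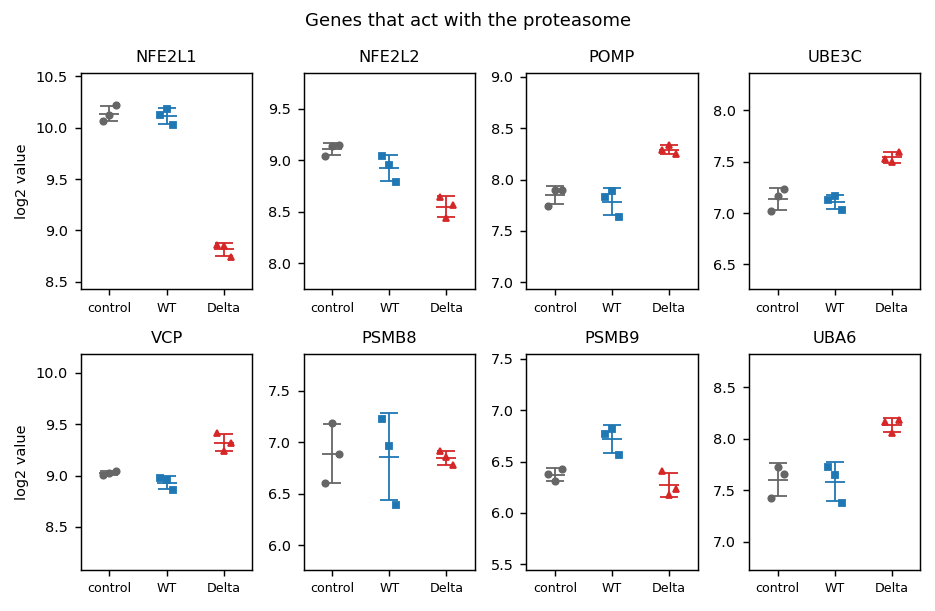
Log2 values (y axis, of the same span in every panel) of 8 genes that act with the proteasome in control, WT-HER2 and Delta-HER2 cells (x axis); points are the 3 arrays of a group, and bars the mean with its SD. NFE2L1 and NFE2L2 are lowest and POMP, UBE3C, VCP and UBA6 highest in Delta-HER2 cells, while PSMB8 overlaps between the groups.

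Other large assemblies gave a scale for these shifts. With Delta-HER2 all 8 genes of the chaperonin CCT, which folds actin and tubulin, rose, with a median of 0.61. Of 73 mitochondrial ribosomal protein genes 27 rose and 3 fell, with a median of 0.23. Of 66 cytosolic ribosomal protein genes 2 rose and 18 fell, with a median of −0.16. Over all genes tested, 13.6% rose and 11.7% fell in this comparison. The 20S core had a median of 0.26 and the 19S cap of 0.47, beside −0.011 over all genes. The core median includes PSMA8 and PSMB11, which lay in the background range, and the immunoproteasome gene PSMB10, which fell. With WT-HER2 none of the genes of the chaperonin and the mitochondrial and cytosolic ribosomes passed, beside 1.68% of all genes. Their medians were 0.035, −0.041 and −0.059. The difference between these groups of genes was not tested, and members of one assembly are not replicates of each other.

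**Figure D5:**
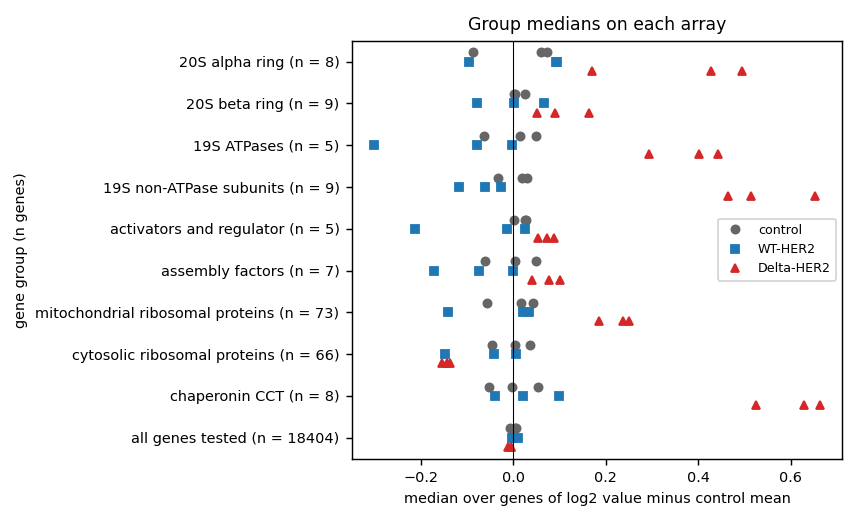
Median over the genes of a group of the log2 value minus the control mean (x axis), 1 point per array, for the 6 roles of proteasome genes, 3 other assemblies and all genes (y axis, with the number of genes); circles are control, squares WT-HER2 and triangles Delta-HER2. Medians of the ATPases on the Delta-HER2 arrays lie from 0.29 to 0.44 and those of the other cap subunits from 0.46 to 0.65, while cytosolic ribosomal proteins lie from −0.15 to −0.14.

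The members' promoters were searched for letters that known regulators bind. RefSeq (GRCh38.p14) windows of 300 bases, 250 before a gene's start and 50 after it, were at hand for 37 members and 27305 genes in all, and PSMA7, PSMB1, PSMB6, PSMB7, PSMD4 and PSMG3 had no entry. Both strands were read, and a gene with several listed starts, as 6 members had, counted once if any of its windows matched. The 27305 genes were neither limited to those tested on the arrays nor matched to the members in base composition. The letters TGACNNNGC, the core of the element that NFE2L1 and NFE2L2 bind with small MAF proteins, were found in 13 of 37 members (35.1%) and in 16.1% of all genes. They were in 8 of the 17 members with a window that rose with Delta-HER2 and in 5 of the other 20. CCGGAAG, a core of ETS factor sites, was in 13 of 37 members (35.1%) and 12.2% of all genes, split as 4 of 17 and 9 of 20. CCAAT was in 17 members (45.9%) and 39.7% of all genes, and CACGTG, the E-box that MYC binds, in 3 members (8.11%) and 8.77%. None of these 4 patterns holds another, though their ends can overlap. A match is a description of the letters and not evidence of binding.

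These stretches show a TGACNNNGC match, in capitals, between the start of a gene and 250 bases upstream, with up to 26 bases on each side; they are written 5′ to 3′ on the gene's strand, and none overlaps an annotated gene. They are shown for 5 members that rose with Delta-HER2, for PSME1, the partner of PSME2 that did not pass, and for PSMD9, which fell. PSMB3, PSMD3 and PSME1 lie on the + strand, as does PSMD9, and PSMD12, PSMG1 and PSME2 on the − strand.
PSMB3 at chr17:38752611-38752671: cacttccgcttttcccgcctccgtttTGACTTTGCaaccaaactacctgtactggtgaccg
PSMD3 at chr17:39980744-39980804: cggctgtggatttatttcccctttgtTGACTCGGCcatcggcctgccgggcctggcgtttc
PSMD12 at chr17:67366708-67366768: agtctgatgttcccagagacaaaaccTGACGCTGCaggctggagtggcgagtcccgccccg
PSMG1 at chr21:39183600-39183660: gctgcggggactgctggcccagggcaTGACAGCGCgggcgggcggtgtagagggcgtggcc
PSME2 at chr14:24146751-24146811: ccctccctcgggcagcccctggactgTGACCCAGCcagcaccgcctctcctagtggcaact
PSME1 at chr14:24136082-24136142: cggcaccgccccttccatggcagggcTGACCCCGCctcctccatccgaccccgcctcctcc
PSMD9 at chr12:121888662-121888722: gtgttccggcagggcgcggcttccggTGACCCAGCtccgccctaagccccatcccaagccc
All 7 matches shown read on the gene's own strand, which follows from the choice of stretches. PSMD9 holds a further match on the other strand, which is not shown. Upstream matches of PSMA4, which rose, and of PSMD5, PSMG2 and PSME4, which did not pass, are not shown either. The stretch of PSMA4 overlaps the annotated span of PSMA4 itself, and those of PSMD5 and PSMG2 overlap the genes CUTALP and SPIRE1. The match of PSME4 is on the other strand. Members that rose, PSMD9 that fell and PSME1 that did not pass each carry the pattern.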

How the data were processed

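The values used are those the authors deposited, on the log2 scale; per the submitters' processing notes they were made with RMA (affy package, R 2.14), a method of background correction, quantile normalization and probe summary. A genome build is not given in the sources used here. Of 32321 features, 19158 had 1 gene symbol, 1388 several and 11775 were not listed, and symbols were updated through Entrez numbers (19128 matched). The feature with the highest mean over 9 arrays stood for a gene. No low values were filtered.

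Tests used limma 3.58.1 (R 4.3.3; 1 coefficient per group, all 9 arrays, two-sided, Benjamini-Hochberg over 18404 genes, threshold 0.05). Intervals are 95% intervals of single differences. The number of arrays limits precision; the median SE was 0.10 log2, and 0.086 over the members. The members, roles and lists were chosen with earlier results of these data known. Where values per array are given, they are those of 22 members: the catalytic genes, activators and PSMF1, and in each role the genes with the highest and lowest difference with Delta-HER2 and the smallest p with WT-HER2. Of each associated list, the 2 genes with the smallest p per comparison are named. Some listed genes are not reported here.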

Additional observations from a re-analysis of the deposited data

How the results depend on the processing

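The replicate numbers did not pair the arrays: deviations of same-numbered arrays correlated from −0.51 to 0.30 over 9 pairs, and 1 of 9 arrays correlated best with its own number. With the replicate number as a block, 17 members rose and 1 fell with Delta-HER2 against control, and 18 and 1 differed between the HER2 lines. Members lower with Delta-HER2 than control numbered 2, and 1 with arrays centred on their medians, with the block and at adjusted p below 0.01, where PSMD9 did not pass. They numbered 3, with PSMD4 added, among genes above the olfactory receptor bound (adjusted p of PSMD4 = 0.0480), among genes above 5 log2 (0.0295), with a trended prior (0.0428), with array weights (0.0229) and with only the 2 groups compared (0.0481), and 1 to 3 with single arrays left out. The cause of each of these was not tested. The members' median for Delta-HER2 against control (0.28) was 0.35 for genes above 5 log2, where PSMA8, PSMB11 and PSMG4 drop out, and 0.25 to 0.35 with single arrays left out. Between the HER2 lines it (0.25) was 0.18 with quantile normalization, a shift whose cause was not tested, 0.36 for genes above 5 log2, and 0.23 to 0.35 with single arrays left out. Members higher numbered 14 to 23 (Delta-HER2 against control) and 15 to 23 (against WT-HER2) over all 22 alternatives. No member's call changed sign; UBQLN4 turned to −0.33 (against control) and −0.28 (against WT-HER2) with the lowest feature of each gene, because its features disagree. Of 22 members called with Delta-HER2 against control, 15 kept their call under every alternative, as did 16 of 20 between the HER2 lines. The 3 arrays per group and signal near background for PSMA8 and PSMB11 limit what can be seen.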
